A study of Mus musculus with 11 samples.

Results

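The growth factor genes described here are the receptors and ligands Fgf2, Fgf7, Fgf10, Fgfr1, Fgfr2, Fgfr3, Egfr, Hbegf, Erbb2 and Erbb3, 10 of the 23507 gene rows of a single-cell read-count table. They were taken by symbol, and each symbol had 1 row. The table holds 3261 cells of the stromal vascular fraction (the tissue without its adipocytes) of perigonadal white fat (pgWAT). All mice, adult males and females, carried the Tg(Pdgfrb-eGFP) reporter, in which green fluorescence follows the Pdgfrb promoter, on the C57BL6/J background, with no treatment. The cells came from 3 male mouse ids (1, 4 and 8, with 1177 cells) and 4 female mouse ids (2, 3, 5 and 6/7, with 2084 cells), and id 6/7 stands for 2 animals that were pooled. CD45-negative cells were sorted on 11 plates for the reporter, for the endothelial protein CD31 or for DPP4, which marks some adipose stem cells (ASC). Each cell gave 1 Smart-seq2 library, a method that covers whole transcripts and uses no molecular identifiers.

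Fibroblast growth factors (FGF) signal through receptor tyrosine kinases such as those encoded by Fgfr1, Fgfr2 and Fgfr3. Alternative splicing of these receptors sets which ligands they accept: Fgf7 and Fgf10 act mainly on the form of Fgfr2 that epithelia carry, while Fgf2 binds several receptor forms. The epidermal growth factor (EGF) family signals through Egfr and its relatives. Egfr binds Hbegf and other ligands that are cut from the cell surface by Adam proteases, Erbb2 has no known ligand and acts as a dimer partner, and Erbb3 has a weak kinase and binds neuregulins. In fat, Fgf2 and Fgf10 are known as growth factors of preadipocytes.

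Total reads per cell ran from 149931 to 3548334 with a median of 629323. Ribosomal RNA genes took 26.7 to 69.2% of the gene reads of the median cell of a plate, so levels are given as CPM, in which the reads of a gene are scaled to a fixed total of reads outside these genes. They are taken from the reads of a cell class summed over 1 mouse, where that mouse had at least 10 cells of the class. Cells were clustered again without the 10 genes and without the other genes of both pathways, and the clusters were named from markers. This gave 2251 ASC-like cells, 561 endothelial (EC-like) cells, 137 macrophage-like cells and 101 mural-like cells, of which 60 were pericyte-like and 41 vascular smooth muscle-like (VSMC-like). A further 22 cells were lymphatic EC-like, 19 were epithelial-like and 170 were left unnamed. ASC-like sums came from 7 mice and EC-like sums from 5 (mice 1, 8, 2, 5 and 6/7), while mural-like sums came from mice 1 and 2 and macrophage-like sums from mice 1 and 5. In mice 1 and 2 the CD31-positive and reporter-positive cells were sorted onto different plates. There the EC-like and ASC-like classes cannot be fully told apart from plate and sort.

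Several sums stood apart. The 13 mural-like cells of mouse 2 were all pericyte-like, were sorted as reporter-negative and CD31-positive, and held 7630.2 CPM of the 4 EC markers Pecam1, Cdh5, Kdr and Cldn5, against 1368 CPM in the mural-like cells of mouse 1 and 6096 to 12588 CPM in EC-like cells. Of the 60 pericyte-like cells, 55 were rich in markers of another class. The macrophage-like cells, which had passed the gate against the leukocyte protein CD45, held 21.9 and 75.3 CPM of the 4 ASC markers Pdgfra, Col1a1, Dcn and Lum, against 20482 to 33911 CPM in ASC-like cells. Of these 137 cells, 78 were rich in markers of another class, and the lymphatic EC list had 1027 and 1759 CPM in them. That list includes Lyve1, and which of its genes gave these reads is not reported here. Mixing with lymphatic EC was not tested. The genes highest in the macrophage-like cluster held no listed marker of another class and none of the macrophage list either. They therefore cannot show whether cells were mixed.

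RefSeq promoter windows were found for 7 of the 10 genes, and those of Fgfr1, Hbegf and Erbb3 were not used here. The 250 bases before the start of Fgf7 and of Egfr are shown because both genes set ASC-like cells apart from EC-like cells while their levels lay in opposite order between the sexes. Capitals mark a match to GGGCGG on either strand.
Fgf7, GRCm38.p6, plus strand, chr2:126034408-126034657: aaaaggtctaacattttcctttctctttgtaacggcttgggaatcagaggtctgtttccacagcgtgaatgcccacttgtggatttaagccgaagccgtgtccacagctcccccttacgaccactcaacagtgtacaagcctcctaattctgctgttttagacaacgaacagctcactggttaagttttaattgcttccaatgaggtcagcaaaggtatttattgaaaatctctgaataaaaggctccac
Egfr, GRCm38.p6, plus strand, chr11:16751953-16752202: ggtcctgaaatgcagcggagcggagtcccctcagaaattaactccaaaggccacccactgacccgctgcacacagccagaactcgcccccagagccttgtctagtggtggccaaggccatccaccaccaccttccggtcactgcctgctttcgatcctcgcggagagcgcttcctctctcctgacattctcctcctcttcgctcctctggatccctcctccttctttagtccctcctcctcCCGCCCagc
The Fgf7 window had 43.6% G or C and 6 CpG dinucleotides, and the Egfr window had 60.8% and 11, beside a median of 52.4% G or C over the 32851 windows of the table. GGGCGG was found 1 time in the Egfr window and not in the Fgf7 window, and 32.7% of all windows held it. Neither TGANTCA (6.75% of all windows) nor TATAAA (12.4%) was found in the windows of the 7 genes. A match is a run of letters and not a measured site.

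In ASC-like cells the receptors Fgfr1 and Egfr and the ligands Fgf7 and Fgf10 had the highest levels of the 10 genes. Per kb of annotated exon, the scale on which genes can be compared, the mean level over the mice was 37.8 ± 16.2 CPM per kb for Fgfr1, 30.1 ± 14.1 for Egfr, 20.7 ± 10.6 for Fgf7, 18.0 ± 16.1 for Fgf10, 8.04 ± 3.70 for Erbb2 and 3.65 ± 1.65 for Fgf2 (SD, n = 7 mice). From Fgfr1 to Erbb2, neighbours in this order differed by less than the larger of their SDs. Fgfr2 (0.852 ± 0.983), Hbegf (0.531 ± 0.228), Erbb3 (0.338 ± 0.400) and Fgfr3 (0.212 ± 0.436 CPM per kb) had means below 1 CPM per kb. With the length of the longest transcript in place of the exon union, the means were 74.0 CPM per kb for Fgfr1 and 33.4 for Egfr. In EC-like cells the highest means were those of Erbb2 (14.2 ± 11.5 CPM per kb), Hbegf (5.67 ± 2.67) and Fgfr3 (5.28 ± 2.91; SD, n = 5 mice). In macrophage-like cells it was that of Fgfr1 (49.1 ± 23.2 CPM per kb, SD, n = 2 mice).

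**Figure D1:**
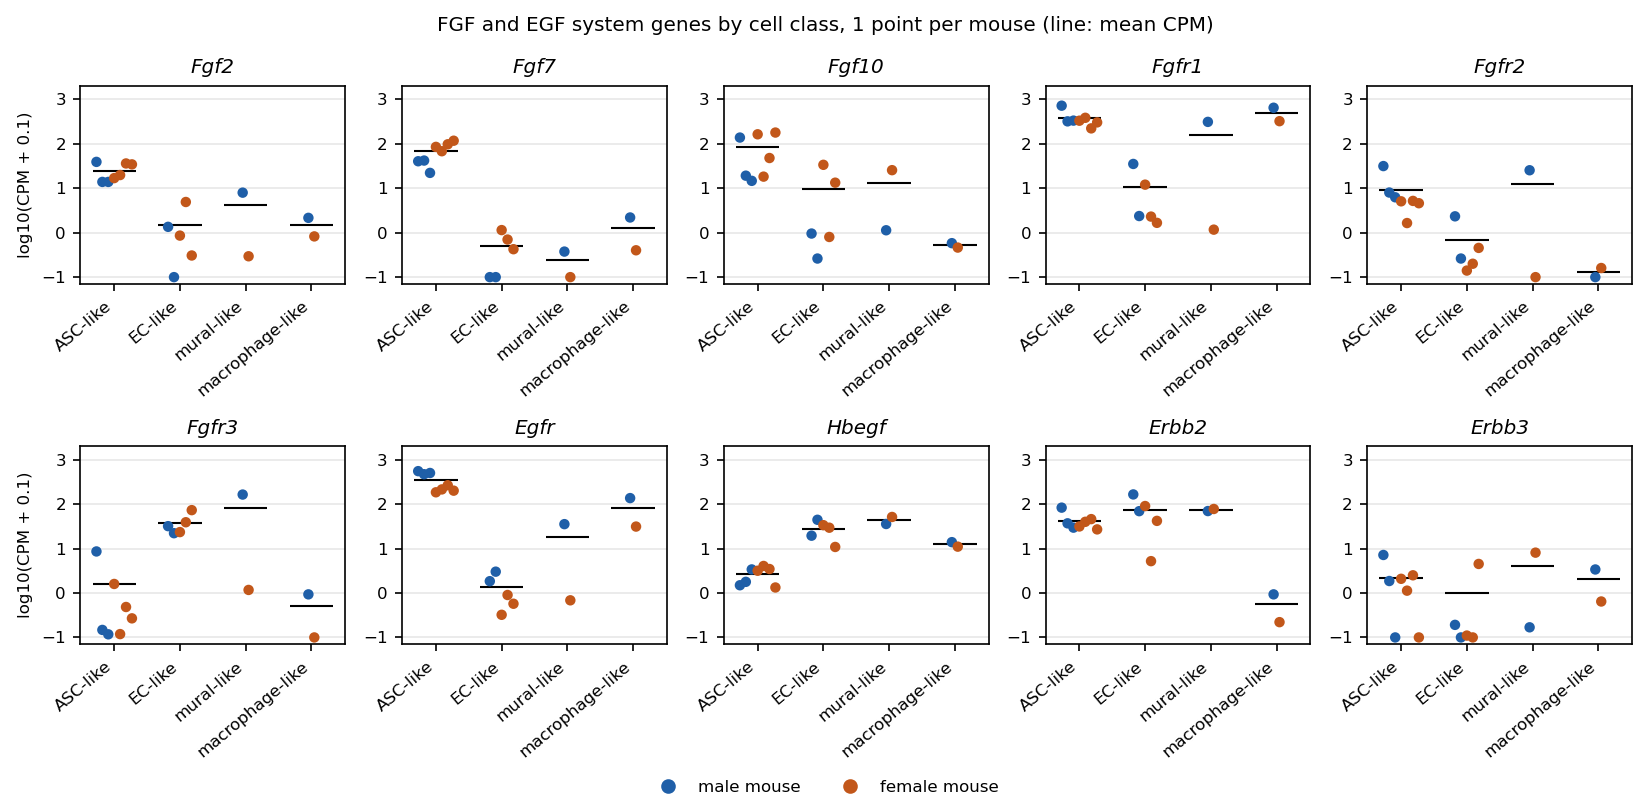
Level of each gene as log10(CPM + 0.1) by cell class, with 1 point per mouse (blue male, orange female) and a line at the mean CPM. The ASC-like points of Fgf7, Fgfr1 and Egfr lie above all EC-like points, those of Hbegf and Fgfr3 lie below all EC-like points, and Erbb2 is lowest in the macrophage-like points (0.831 and 0.121 CPM).

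The comparison of EC-like with ASC-like cells asks how the ligands and receptors are divided between the vessel lining and the stem cells of the fat. Of the 9 genes tested, 6 were lower and 2 higher in EC-like cells: the 3 FGF ligands, Fgfr1, Fgfr2 and Egfr were lower, and Fgfr3 and Hbegf were higher. A call needed an adjusted p under 0.05 in edgeR's quasi-likelihood test with mouse as a block and a fold over 2.6. Erbb3 was not tested because fewer than 2 sums held more than 600 of its reads. Over all 12844 genes tested, 21.8% were called, and the median log2 fold change was -5.34 over the 9 genes and -0.19 over all genes. Over all EC-like sums Fgf2, Fgf7, Fgfr2 and Egfr had 171, 120, 91 and 121 reads. They could not have passed the read filter, shared by all class contrasts, without the ASC-like sums. The count of lower genes and the median over the 9 genes thus depend on the class where these genes were high.

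Fgf7 (ENSMUSG00000027208, chr2:126034658-126091185, plus strand, mm10), a ligand made by mesenchymal cells, had a lowest, median and highest level of 22.0, 67.9 and 117 CPM in the ASC-like sums. In EC-like cells it had 0, 0, 1.04, 0.600 and 0.325 CPM in mice 1, 8, 2, 5 and 6/7, so the classes did not overlap (log2 fold change -7.88, SE 1.26, adjusted p = 0.00143). Fgf2 (ENSMUSG00000037225, chr3:37348346-37410108, plus strand), a ligand without a classical secretion signal, had 13.8, 19.7 and 39.1 CPM in ASC-like cells and 1.25, 0, 0.760, 4.80 and 0.207 CPM in EC-like cells of the same mice, again without overlap (log2 fold change -5.34, SE 1.16, adjusted p = 0.00748). The exons of Fgf2 overlap Nudt6 on the opposite strand and Gm43439 on the same strand. Those of Fgf10, Fgfr1, Fgfr3 and Erbb2 overlap Gm16263, Gm16159, G630022F23Rik and Mien1, in this order, on the opposite strand. Without stated use of strand the reads of such pairs cannot be told apart where they overlap.

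Fgf10 (ENSMUSG00000021732, chr13:118669791-118792115, plus strand), the ligand of budding epithelia, had 14.6, 47.7 and 179 CPM in ASC-like cells. Its EC-like levels were 0.856, 0.162, 33.5, 0.701 and 13.2 CPM in mice 1, 8, 2, 5 and 6/7. The EC-like level of mouse 2 lay above the ASC-like levels of mice 8, 3 and 4 (14.6, 18.1 and 19.1 CPM), although the ASC-like cells of mice 2 and 6/7 had 163 and 179 CPM. Within mice the difference was a log2 fold change of -5.41 (SE 0.83, adjusted p = 0.00115), and without the replicate block it was -3.27 (adjusted p = 0.0424). The 13 mural-like cells of mouse 2 also held 25.4 CPM of Fgf10.

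Hbegf, a ligand of Egfr, was higher in EC-like cells. It had 1.23, 3.07 and 3.95 CPM as lowest, median and highest in ASC-like cells and 19.4, 44.2, 33.4, 29.3 and 10.8 CPM in EC-like cells of mice 1, 8, 2, 5 and 6/7, without overlap (log2 fold change 3.25, SE 0.44, adjusted p = 0.000545). Hbegf is known to be induced fast by growth factors and stress. The summed level of 8 genes induced during tissue dissociation (Fos, Fosb, Jun, Junb, Egr1, Atf3, Ier2 and Nr4a1) was 14569 to 27209 CPM in ASC-like and 10647 to 16860 CPM in EC-like cells. Their part in the result was not tested.

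Among the receptors, Egfr (ENSMUSG00000020122, chr11:16752203-16918158, plus strand) had the largest fitted difference. Its lowest, median and highest ASC-like levels were 184, 265 and 551 CPM, and the EC-like levels were 1.74, 2.92, 0.223, 0.801 and 0.473 CPM in mice 1, 8, 2, 5 and 6/7 (log2 fold change -8.80, SE 0.70, adjusted p = 3.62e-05). Fgfr1 (ENSMUSG00000031565, chr8:25513654-25575718, plus strand), an FGF receptor of mesenchymal cells, had 222, 331 and 719.8 CPM in ASC-like cells and 35.1, 2.27, 11.9, 2.20 and 1.57 CPM in EC-like cells of the same mice (log2 fold change -6.17, SE 1.14, adjusted p = 0.00320). Neither receptor overlapped between the classes. Fgfr2 (ENSMUSG00000030849, chr7:130162451-133123350, minus strand) was low in both, with 1.55 to 31.4 CPM in ASC-like and 0.0405 to 2.23 CPM in EC-like cells (log2 fold change -5.26, SE 1.33, adjusted p = 0.0162). Mouse 1 had the highest Fgfr2 level of each class, and its EC-like level lay above the lowest ASC-like level, that of mouse 3. The Fgfr2 gene model shares exons with Ctbp2 on the same strand.

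Fgfr3 (ENSMUSG00000054252, chr5:33721674-33737068, plus strand) was the FGF receptor that was higher in EC-like cells. It had 31.8, 22.0, 23.3, 38.9 and 73.0 CPM in EC-like cells of mice 1, 8, 2, 5 and 6/7 and 0.0175 to 8.50 CPM in ASC-like cells, where mouse 1 was highest (log2 fold change 6.28, SE 1.52, adjusted p = 0.0132). Without mouse 5 the log2 fold change was 5.97 with an adjusted p of 0.0671, and the call was lost. Erbb2 (ENSMUSG00000062312, chr11:98412470-98437716, plus strand) was not called: it had 26.9 to 83.1 CPM in ASC-like cells and 165, 69.2, 90.3, 5.10 and 41.8 CPM in EC-like cells (log2 fold change 0.20, SE 0.62, adjusted p = 0.852). Fgf2, Fgf7, Fgf10, Fgfr1, Fgfr2 and Egfr kept their call without any 1 mouse. With mouse as a block the contrast rests on the 5 mice with both sums. Mice 3 and 4 had no EC-like sum, so leaving out either is a weak check. Hbegf kept it in the 6 fits that could test it and did not pass the read filter without mouse 2.

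**Figure D2:**
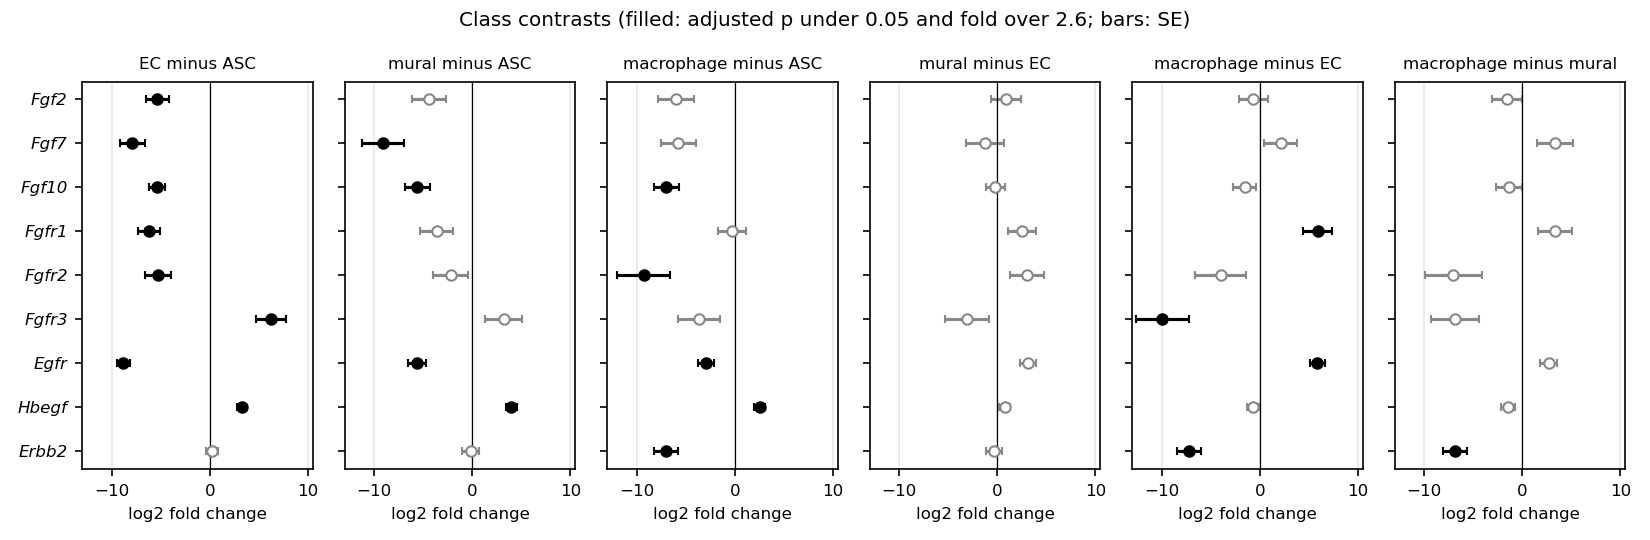
Log2 fold change of 9 genes in the 6 contrasts of cell classes (x axis), with SE bars. Filled points passed an adjusted p of 0.05 and a fold of 2.6. Egfr is -8.80 in EC minus ASC and 5.88 in macrophage minus EC, and no point is filled in mural minus EC.

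Whole plates, compared by their sort alone, gave levels that rest on no cluster. In mouse 1 the CD31-positive plate (268 cells) had 0.780 CPM of Fgf7 and the reporter-positive plate (344 cells) had 33.4, and for Egfr the levels were 55.8 and 459 CPM. In mouse 2 the CD31-positive plate (233 cells) had 0.866 CPM of Fgf7 and 0.227 of Egfr, while the reporter-positive, DPP4-negative plate (369 cells) had 105 and 179.8 CPM. The Hbegf level of the CD31-positive plate was above that of the reporter-positive one in both mice, with 15.6 against 8.97 CPM in mouse 1 and 34.3 against 0.572 CPM in mouse 2. Fgfr3, called higher in EC-like cells, was lower on the CD31-positive plate in mouse 1 (21.5 against 63.7 CPM). In mouse 2 it was higher there (19.5 against 2.77 CPM). Fgfr1 was lower on the CD31-positive plate, with 273 against 646 CPM in mouse 1 and 10.03 against 278 CPM in mouse 2. The 273 CPM lay above the 35.1 CPM of the EC-like cells of mouse 1. Fgf2, Fgf10 and Fgfr2 were lower on the CD31-positive plate in both mice. Each sort is 1 plate per mouse, so these are values without a test, and sort cannot be told apart from plate. The CD31-positive plate of mouse 1 also held 73 macrophage-like cells.

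Mural cells wrap small vessels (pericytes) and larger ones (VSMC), and mural-like sums came from 2 mice. Against ASC-like cells, 3 of 9 genes were lower and 1 higher, beside 8.13% of all genes called, and the medians were -3.64 over the 9 genes and -0.21 over all genes. All class comparisons with ASC-like cells share the same ASC-like sums. Hbegf was higher, with 35.5 CPM in mouse 1 and 51.2 CPM in mouse 2 (log2 fold change 4.00, SE 0.58, adjusted p = 0.00407). Egfr was lower, with 35.3 and 0.584 CPM (-5.63, SE 0.96, adjusted p = 0.00873). Fgf7, with 0.276 and 0 CPM (-9.12, SE 2.13, adjusted p = 0.0307), and Fgf10, with 1.03 and 25.4 CPM (-5.61, SE 1.25, adjusted p = 0.0255), were lower as well. With mouse 2 left out, whose mural-like cells held EC markers, the mural-like arm was the 1 sum of mouse 1, which is then assumed to vary like the other groups. Egfr was the 1 call in that fit (-4.23, adjusted p = 0.0262), and Hbegf could not be tested. The arm was also 1 sum of mouse 1 in the next 2 fits, with 40 cells, few of them pericyte-like, without the cells rich in markers of another class, and with 72 cells when each cell was named from its own markers. The first gave Egfr as the 1 call (-4.59, adjusted p = 0.0269), with Hbegf at 4.17 (adjusted p = 0.0585). The second ended all 4 calls, with Egfr at -4.60, adjusted p = 0.120, Hbegf at 3.39, adjusted p = 0.0866, Fgf7 at -3.91, adjusted p = 0.300 and Fgf10 at -4.36, adjusted p = 0.298. Fgf7 lost its call without mouse 5 or 6/7 (adjusted p = 0.0506 and 0.0628), Fgf10 without mouse 1 or 5 (0.155 and 0.0636) and without the replicate block (-2.85, adjusted p = 0.315), and Hbegf without mouse 1 (0.0635). The dissociation list had 32486 and 20871 CPM in the mural-like sums, and its part in the Hbegf levels was not tested.

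The receptor levels of the pericyte-like and VSMC-like cells lay far apart in mouse 1, the one mouse with at least 10 cells of each, and are given without a test. Fgfr3 had 282 CPM in 44 pericyte-like and 32.3 CPM in 38 VSMC-like cells, and Fgfr2 had 47.5 and 0.582 CPM. The order was the other way for Fgfr1, with 50.0 CPM in pericyte-like and 601 CPM in VSMC-like cells, and for Fgf2, with 0.393 and 16.1 CPM. The 13 pericyte-like cells of mouse 2 had 1.07 CPM of Fgfr3, 0 of Fgfr2 and 1.07 of Fgfr1, far from those of mouse 1. Between mural-like and EC-like cells 0 of 9 genes were called, beside 2.28% of all genes, with medians of 0.75 over the 9 genes and -0.05 over all genes. Egfr alone of the 9 had an unadjusted p under 0.05 (log2 fold change 3.17, SE 0.81, adjusted p = 0.0952), beside 1771 of all 12844 genes. Egfr was called by edgeR's likelihood ratio test and by DESeq2. Without the cells rich in markers of another class Fgfr1 (5.19, adjusted p = 0.0139) and Egfr (4.11, adjusted p = 0.00912) were called, as were 916 of all genes against 293 before. That fit has 1 mural-like sum, of mouse 1, in which most cells are VSMC-like, so it compares another make-up of cells.

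Macrophage-like cells held Fgfr1 at levels within the range of the ASC-like cells. Fgfr1 had 647 CPM in the macrophage-like cells of mouse 1 and 323 CPM in those of mouse 5, and 719.8 and 222 CPM in the ASC-like cells of these mice (log2 fold change -0.28, SE 1.44, adjusted p = 0.936). Against EC-like cells Fgfr1 was higher (log2 fold change 5.90, SE 1.50, adjusted p = 0.0283). That call was lost without mouse 5 (adjusted p = 0.352) and without mouse 6/7 (adjusted p = 0.0542).

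Egfr lay between the ASC-like and the EC-like levels, with 136 CPM in mouse 1 and 31.1 CPM in mouse 5. It was lower than in ASC-like cells (log2 fold change -2.92, SE 0.83, adjusted p = 0.0421) and higher than in EC-like cells (log2 fold change 5.88, SE 0.79, adjusted p = 0.00143). The call against ASC-like cells was lost without mouse 1, 5 or 6/7 (adjusted p = 0.0840, 0.306 and 0.0688) and without the replicate block (-2.10, adjusted p = 0.249), and the call against EC-like cells passed the limits without each mouse. Without mouse 1 or 5 the macrophage-like arm is 1 sum, here and below, and is assumed to vary like the other groups.

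Erbb2 was close to absent from macrophage-like cells, with 0.831 CPM in mouse 1 (19 reads) and 0.121 CPM in mouse 5 (2 reads). The lowest of the other sums, the EC-like cells of mouse 5, had 5.10 CPM. The log2 fold change was -7.01 against ASC-like (SE 1.18, adjusted p = 0.00411), -7.22 against EC-like (SE 1.20, adjusted p = 0.00418) and -6.88 against mural-like cells (SE 1.25, adjusted p = 0.00896). Without mouse 1, which leaves the 1 sum of mouse 5, the log2 fold changes were -7.55, -7.68 and -7.84 with adjusted p of 0.111, 0.120 and 0.148, and the 3 calls were lost.

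Fgf10 was lower in macrophage-like than in ASC-like cells, with 0.481 and 0.362 CPM (log2 fold change -6.96, SE 1.32, adjusted p = 0.00724). Fgfr2 had 0 and 1 reads in the macrophage-like sums, a pooled level of 0.0254 CPM with an exact Poisson interval of 0.000642 to 0.141 CPM that covers counting error only, against a pooled 7.11 CPM in ASC-like cells (adjusted p = 0.0473). Fgfr3 had 19 and 0 reads and was lower than in EC-like cells (adjusted p = 0.0366). Hbegf was higher than in ASC-like cells, with 13.8 and 10.9 CPM (log2 fold change 2.54, SE 0.57, adjusted p = 0.0152). Fgf2 had 2.06 and 0.725 CPM and Fgf7 2.10 and 0.302 CPM, with log2 fold changes of -5.98 and -5.74 and adjusted p of 0.0547 and 0.0621 against ASC-like cells. Both were called by the likelihood ratio test (adjusted p = 0.00266 and 0.00706) and by DESeq2 (adjusted p = 9.34e-06 and 0.000121). Fgf7 was also called without the cells rich in markers of another class (-9.76, adjusted p = 0.00521) and with cells named from their own markers (-9.06, adjusted p = 0.00691). The calls of Fgf10, Fgfr2 and Hbegf were lost without mouse 1 (adjusted p = 0.0981, 0.181 and 0.284) and without mouse 5 (0.1001, 0.0951 and 0.0552), and that of Fgfr2 also without mouse 6/7 or 8 (0.0681 and 0.0587). That of Fgfr3 was lost without mouse 1, 5 or 6/7 (0.118, 0.274 and 0.0544) and without the replicate block (-6.23, adjusted p = 0.141).

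In counts, 5 of 9 genes were called between macrophage-like and ASC-like cells (1 higher and 4 lower, beside 15.0% of all genes), 4 between macrophage-like and EC-like cells (2 higher and 2 lower, beside 13.9%) and 1 between macrophage-like and mural-like cells (lower, beside 10%). The medians over the 9 genes were -5.74, -0.70 and -1.46, and over all genes -0.19, 0.03 and 0.02. The macrophage-like sums rest on 2 mice, 1 with cells from a CD31-positive and 1 from a reporter-positive plate. The first of these counts was 1 without mouse 1 and 1 without mouse 5. The number called among all genes fell in the same fits, from 1930 of 12844 to 617 of 12403 and 661 of 12620.

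The share of cells with a read of each gene was measured after each cell had been thinned to 150000 gene reads, which left out 2 ASC-like and 3 EC-like cells. Ribosomal RNA reads counted among these, so depth outside those genes still differed between plates, here and for pairs of genes. Fgfr1 was seen in 92.2% of 2249 ASC-like cells (exact 95% binomial interval 91.0 to 93.3%, range over mice 79.8 to 96.4%), Egfr in 87.7%, Fgf7 in 50.7%, Fgf10 in 41.1%, Erbb2 in 26.0% and Fgf2 in 21.8%. The other 4 genes were seen in 1.33% (Fgfr3) to 6.67% (Fgfr2) of these cells. Fgf7 was seen in 1.08% of 558 EC-like and 1.46% of 137 macrophage-like cells, classes not known to make it. Before thinning the shares for Fgf7 were 64.7% of ASC-like and 2.14% of EC-like cells. Median reads per cell were 678793 in ASC-like, 536225 in EC-like and 664332 in macrophage-like cells. The intervals cover counting error only, since reads without molecular identifiers are not independent molecules.

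Fgfr1 was seen in 76.6% of the macrophage-like cells (68.7 to 83.4%), with 76.3 and 77.0% in the 2 mice. Egfr was seen in 27.0% of them (19.8 to 35.3%) and Erbb2 in 3.65%. Hbegf was seen in 9.32% of EC-like cells (6.57 to 17.2% over mice) and 2.49% of ASC-like cells, and Fgfr3 in 7.53% and 1.33%. A small part of the EC-like cells thus carried a read of either gene. Fgfr1 was seen in 80.5% of 41 VSMC-like cells and 31.7% of 60 pericyte-like cells, and Fgfr3 in 30% of the pericyte-like cells.

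**Figure D3:**
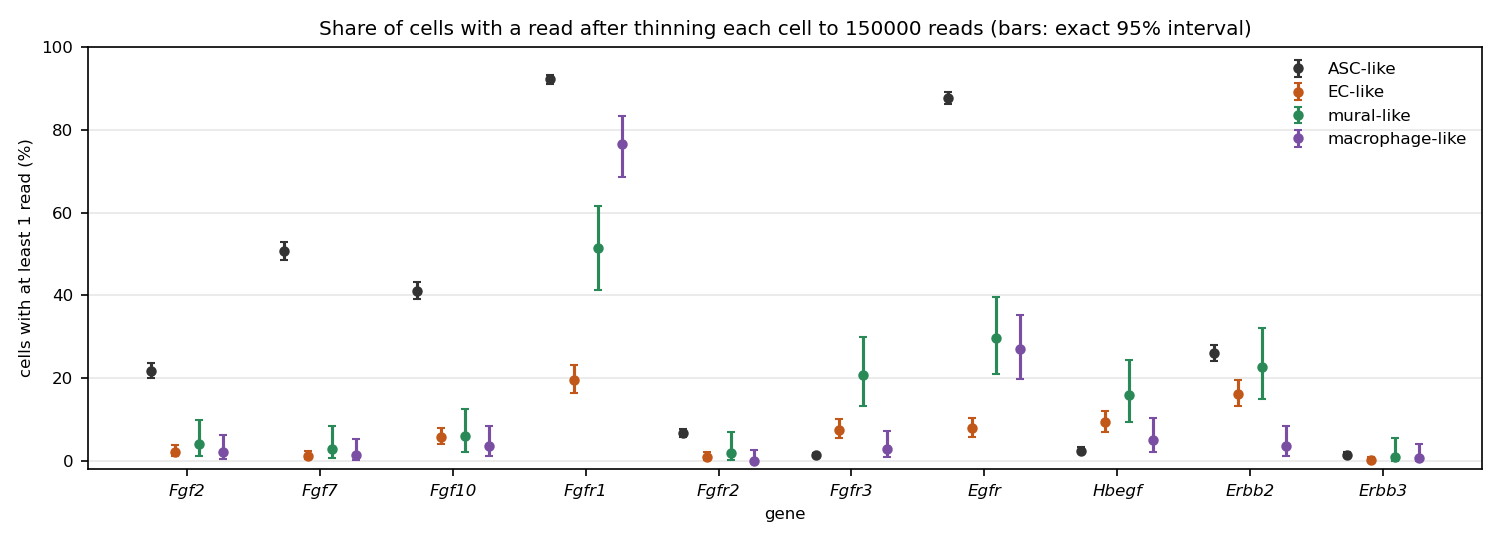
Percent of cells with at least 1 read of each gene after thinning every cell to 150000 reads, for 4 cell classes, with exact 95% binomial intervals. Fgfr1 is seen in 92.2% of ASC-like and 76.6% of macrophage-like cells, and Fgf7 in 50.7% of ASC-like and 1.08% of EC-like cells.

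Fgf7 and Fgf10 were often read in the same ASC-like cells. Among the 1140 ASC-like cells with a thinned read of Fgf7, 49.8% also had one of Fgf10, against 32.1% of the cells without Fgf7, and the share was higher among cells with Fgf7 in 7 of 7 mice. For Fgfr1 and Fgf7, Fgf7 was read in 50.6% of cells with Fgfr1 and 52.3% of cells without it, with a higher share among cells with Fgfr1 in 2 of 7 mice. These shares are descriptions, since the cells of 1 mouse share their plates.

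ASC-like cells were divided by marker scores within each mouse into ASC1a-like (Col15a1, G0s2 and Cxcl14), ASC1b-like (Clec11a and Fmo2) and ASC2-like cells (Dpp4, Cd55 and Arl4d). The scores of 435 cells (19.3%) put them less than 0.25 from another subtype. Each subtype had at least 30 cells in each of the 7 mice, and 7 of the 10 genes were tested, since Fgfr3, Hbegf and Erbb3 did not pass the read filter.

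Of the 3 FGF ligands among the genes, Fgf2 was higher in ASC2-like than in ASC1a-like cells. Its lowest, median and highest levels were 5.12, 12.1 and 20.5 CPM in ASC1a-like, 6.34, 16.5 and 45.4 CPM in ASC1b-like and 24.3, 37.7 and 68.2 CPM in ASC2-like cells. The ASC2-like values lay above all ASC1a-like values, and ASC2-like was above ASC1a-like in 7 of 7 mice (log2 fold change 1.63, SE 0.25, adjusted p = 0.000317). It was the 1 gene called of 7 tested, beside 3.32% of all 11125 genes, with medians of 0.21 over the 7 genes and -0.02 over all genes. Against ASC1b-like cells the log2 fold change was 0.85 (SE 0.25, adjusted p = 0.0430), below the fold limit.

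Fgf7, Fgf10 and Egfr passed the limit on p in the other direction without reaching the fold of 2.6. Fgf7 had a median of 71.3 CPM in ASC1a-like and 36.2 CPM in ASC2-like cells and was lower in ASC2-like cells in 7 of 7 mice (log2 fold change -1.07, SE 0.22, adjusted p = 0.00356). Fgf10 had medians of 89.0 and 39.4 CPM, lower in 7 of 7 mice (-1.31, SE 0.40, adjusted p = 0.0478). Egfr had medians of 348 and 248 CPM, lower in 7 of 7 mice (-0.62, SE 0.10, adjusted p = 0.000579). Across mice the ranges of each gene overlapped between the subtypes. Leaving out 1 mouse at a time, the highest adjusted p was 0.0184 for Fgf7, 0.156 for Fgf10 and 0.00500 for Egfr. For Fgfr1 the medians were 310.2 and 397 CPM (0.21, SE 0.09, adjusted p = 0.221).

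Between ASC1b-like and ASC1a-like cells 0 of 7 genes were called (beside 0.701% of all genes). An unadjusted p under 0.05 was found for 3 of the 7, beside 1520 of all 11125 genes. The medians were -0.16 over the 7 genes and -0.01 over all genes. Egfr was lower in ASC1b-like cells in 7 of 7 mice (log2 fold change -0.60, SE 0.10, adjusted p = 0.00406), below the fold limit. Fgf10 had a median of 23.9 CPM in ASC1b-like cells (log2 fold change -1.61, SE 0.41, adjusted p = 0.0510), and the likelihood ratio test (adjusted p = 0.00481) and DESeq2 (adjusted p = 0.00809) each called it. Between ASC2-like and ASC1b-like cells 0 of 7 genes were called as well (beside 3.03%), and none by the likelihood ratio test or DESeq2. Of the 7, 3 had an unadjusted p under 0.05, beside 2110 of all 11125 genes. The medians there were 0.30 and 0.00. Fgfr1 was higher in ASC2-like cells in 6 of 7 mice (log2 fold change 0.36, SE 0.09, adjusted p = 0.0213), again below the fold limit, and its adjusted p reached 0.0762 with 1 mouse left out. Fgfr2 and Erbb2 did not pass the limit on p in any of the 3 contrasts.

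**Figure D4:**
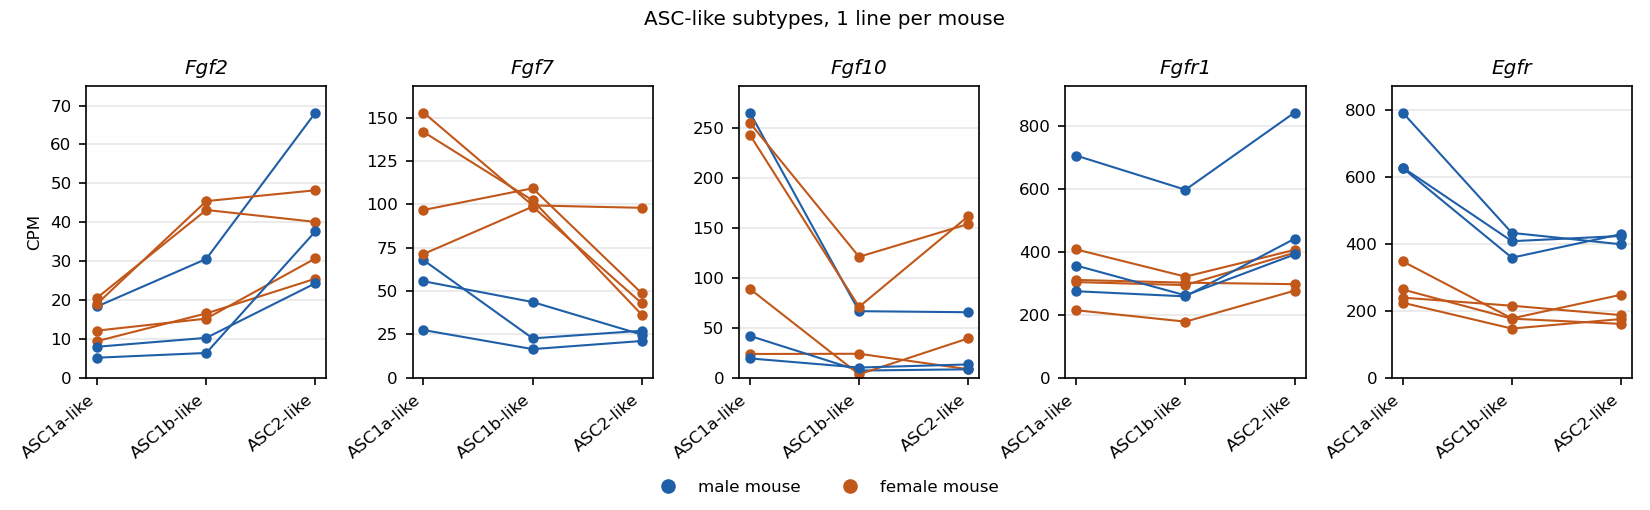
CPM of 5 genes in ASC1a-like, ASC1b-like and ASC2-like cells, with 1 line per mouse (blue male, orange female). All 7 lines of Fgf2 end higher in ASC2-like than in ASC1a-like cells, and all 7 lines of Fgf7, Fgf10 and Egfr end lower.

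Other marker lists moved with the subtypes. The dissociation list had 19737 to 30562 CPM in ASC1a-like and 7570.4 to 23368 CPM in ASC2-like cells, and a list of 10 adipocyte genes had 974 to 5028 and 286 to 1712 CPM. Their part in the differences was not tested. Mouse 2 had a DPP4-positive plate with 379 ASC-like cells and a DPP4-negative one with 368, sorted on the protein of the marker gene Dpp4 and not on the scores, and with 1 plate each there is no test. Fgf2 had 22.2 (21.5 to 22.9) CPM on the DPP4-positive and 12.1 (11.7 to 12.6) CPM on the DPP4-negative plate, with exact Poisson intervals for counting error only. Fgf7 had 61.8 (60.6 to 62.9) and 105 (104 to 106) CPM and Fgfr1 391 (388 to 394) and 279 (276 to 281) CPM. Egfr had 189 (187 to 191) and 180.1 (178 to 182) CPM and Fgf10 183 (181 to 185) and 147 (145 to 148) CPM. The order of Fgf2 and Fgf7 between the plates was that of ASC2-like against ASC1a-like cells, and that of Egfr and Fgf10 was not. The paper takes DPP4-negative cells as ASC1a and ASC1b together, so the plates do not test that order. Pooled Fgf10 levels were 167 CPM in ASC1a-like, 53.4 in ASC1b-like and 97.6 in ASC2-like cells.

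Male and female ASC-like cells were compared over 3 and 4 mice, the grouping the samples are labelled by. Of 7 genes tested 1 was called, beside 2.23% of all 11822 genes. Egfr was higher in males: it had 551, 469.8 and 501 CPM in the ASC-like cells of male mice 1, 4 and 8, and 184, 214, 265 and 200.4 CPM in those of female mice 2, 3, 5 and 6/7. The sexes did not overlap, and the means were 507 ± 40.8 CPM in males (SD, n = 3 mice) and 216 ± 35.0 CPM in females (SD, n = 4 mice). The log2 fold change was 1.52 (SE 0.25, adjusted p = 0.0143 in edgeR's quasi-likelihood test). The call was lost without mouse 6/7 (1.46, adjusted p = 0.0773), without mouse 8 (1.44, adjusted p = 0.0518) and with library totals, ribosomal RNA reads included, in place of TMM (0.87, adjusted p = 0.253). Within the subtypes, males had 627 to 793 and females 224 to 348 CPM in ASC1a-like cells, 359 to 433 and 147 to 215 CPM in ASC1b-like cells, and 399 to 429 and 161 to 248 CPM in ASC2-like cells, without overlap in any subtype.

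Fgf7 lay in the other order and was not called. It had 40.4, 41.8 and 22.0 CPM in male mice 1, 4 and 8 and 85.0, 67.9, 97.3 and 117 CPM in female mice 2, 3, 5 and 6/7, without overlap (log2 fold change -1.14, SE 0.27, adjusted p = 0.0579). The likelihood ratio test (adjusted p = 0.0127) and DESeq2 (adjusted p = 0.00541) put it past the limit on p but not past the fold. Fgfr2 did not overlap either, with 31.4, 7.90 and 6.15 CPM in males and 1.55 to 5.09 CPM in females (2.12, SE 0.59, adjusted p = 0.102), and both other tools called it (adjusted p = 0.0148 and 0.00895). The share of all genes without overlap was not counted, here or between cell classes, so a lack of overlap adds nothing to the tests. Of the 7 genes, 4 had an unadjusted p under 0.05, beside 2298 of all 11822 genes. Fgfr1 (0.80, adjusted p = 0.238), Erbb2 (0.70, adjusted p = 0.288), Fgf10 (-0.66, adjusted p = 0.704) and Fgf2 (-0.01, adjusted p = 0.986) overlapped between the sexes. For Fgfr1 and Erbb2 mouse 1 was the highest of all mice, with 719.8 and 83.1 CPM, while the other males had 319 and 332 CPM of Fgfr1 and 36.8 and 29.4 CPM of Erbb2. The median was 0.70 over the 7 genes and 0.04 over all genes.

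The adipocyte list had 655 to 889.5 CPM in male and 1456 to 2889 CPM in female ASC-like sums, without overlap, and its part in the Egfr and Fgf7 values was not tested. Each plate held cells of 1 mouse id, so the sexes cannot be told apart from the handling of their plates beyond the spread over mice. Among the EC-like sums of 2 males and 3 females 0 of 4 genes were called (beside 0.0493% of all 8116 genes). None of the 4 had an unadjusted p under 0.05, beside 612 of all 8116 genes, and none was called by the likelihood ratio test or DESeq2. The medians were 1.09 over the 4 genes and 0.00 over all genes. The test of whether the sex difference differed between both classes called 0 of 9 genes (beside 0.0% of 12207 genes, of which 770 had an unadjusted p under 0.05), as did the likelihood ratio test and DESeq2. The medians were -0.38 over the 9 genes and 0.12 over all genes. Fgf7 (log2 fold change 7.32, SE 2.16, adjusted p = 0.774) and Fgf10 (log2 fold change 3.37, SE 1.20, adjusted p = 0.774) had an unadjusted p under 0.05. These values are the sex effect in ASC-like cells minus that in EC-like cells. The male EC-like sums held 0 reads of Fgf7 and the female ones 120, so the size of its value rests on zero counts.

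**Figure D5:**
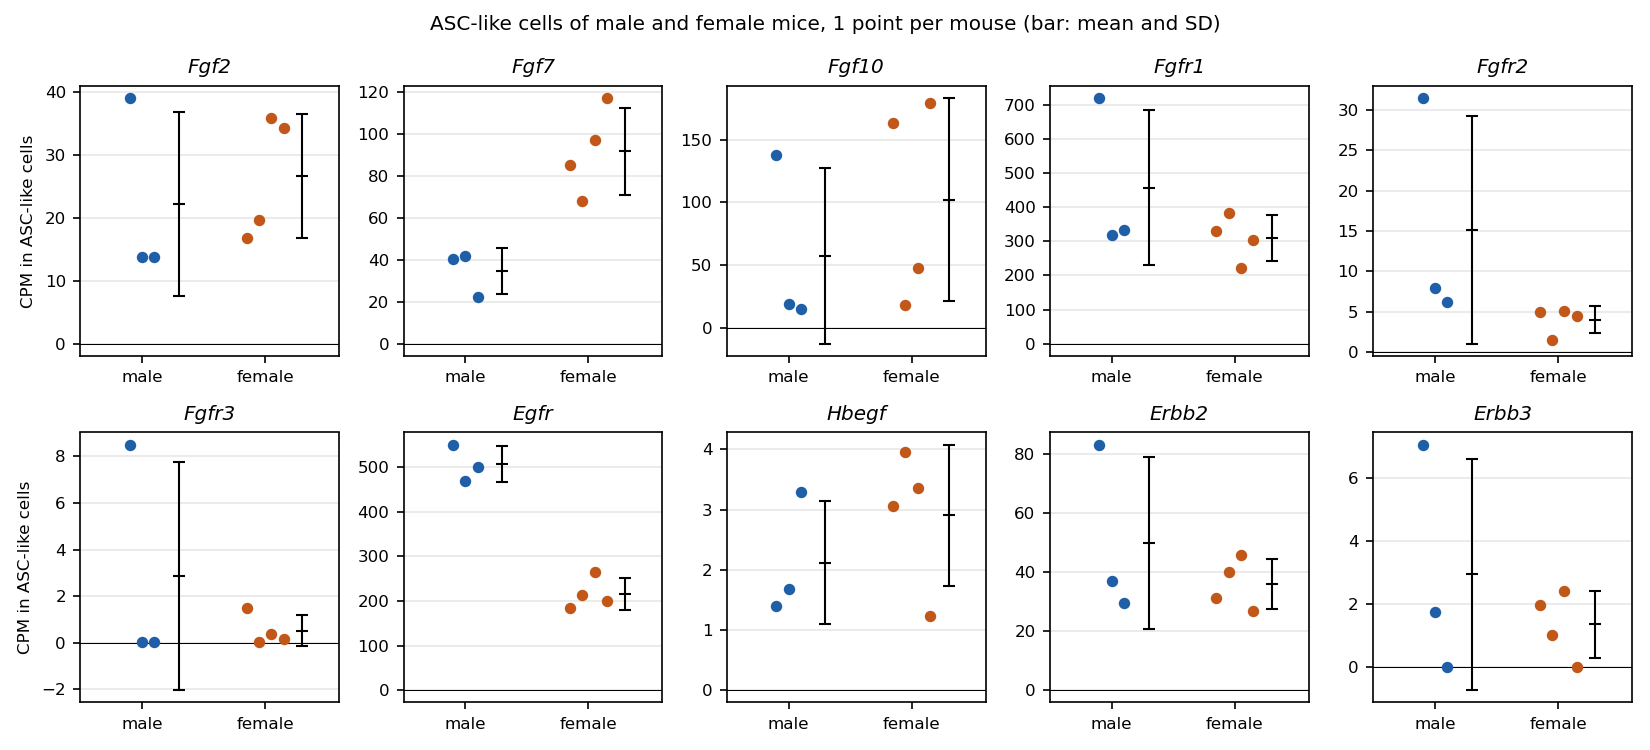
CPM of the 10 genes in ASC-like cells of male and female mice, 1 point per mouse, with the mean and SD beside them. The 3 male Egfr values (469.8 to 551 CPM) lie above the 4 female values (184 to 265 CPM), and the male Fgf7 values lie below the female ones without passing the test.

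The 19 epithelial-like cells, all of mouse 1 and in no comparison, had 905 CPM of Fgfr3, 129.7 CPM of Fgfr2 and 98.6 CPM of Erbb3, above every sum of the other classes. Fgfr3 was seen in 57.9% of them, Fgfr2 in 36.8% and Erbb3 in 31.6%. They held 0 reads of Fgf7 and 3 of Fgf10. Erbb3 had 2377 reads in all 3261 cells, and outside the epithelial-like cells its highest sum was 14.9 CPM, in ASC2-like cells of mouse 1. The 22 lymphatic EC-like cells had 181 CPM of Fgfr1 when pooled, against a pooled 13.3 CPM in EC-like cells, and no read of Fgfr2 or Fgfr3.

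Of 63 other genes of both pathways that were listed, 50 had a row. Among FGF ligands, Fgf1 and Fgf18 were the 2 tested of 11. Both were lower in EC-like than in ASC-like cells (Fgf18 with an adjusted p of 0.00207, and Fgf1 -6.68, adjusted p = 0.00691) and higher in ASC2-like than in ASC1a-like cells (Fgf18 2.72, adjusted p = 0.00981, and Fgf1 2.22, adjusted p = 0.00809), as Fgf2 was. Among EGF family ligands, Tgfa (-5.00, adjusted p = 0.00147) and Btc (-3.56, adjusted p = 0.0341), the 2 tested of 6, were lower in EC-like cells, the reverse of Hbegf. Fgf18 (adjusted p = 0.0231) and Tgfa (-4.78, adjusted p = 0.0255) were lower in macrophage-like than in ASC-like cells as well. Of the 4 sheddases and partners, Rhbdf2, a partner of Adam17, was higher in EC-like (3.76, adjusted p = 0.000188), mural-like (3.10, adjusted p = 0.00954) and macrophage-like cells (3.29, adjusted p = 0.00302) than in ASC-like cells, and so was Hbegf. Adam10 was higher in EC-like cells (2.01, adjusted p = 0.00109) and Rhbdf1 lower (-1.51, adjusted p = 0.00789). None of the 4 other receptors and co-receptors with a row was called in any contrast, and 1 of them was tested.

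Of the 15 feedback and target genes of both pathways, 13 were tested. Between EC-like and ASC-like cells 3 were higher and 5 lower (beside 21.8% of all genes called), and the largest fitted differences were those of Lrig1 (-6.49, adjusted p = 0.00300), which restrains Egfr, the transcription factor gene Etv1 (-4.70, adjusted p = 0.00230), the inhibitor Spry2 (-4.18, adjusted p = 0.00116) and Errfi1, an inhibitor of Egfr (-4.15, adjusted p = 0.00215). Between macrophage-like and ASC-like cells 1 was higher and 5 were lower (beside 15.0%), led by Lrig1 (adjusted p = 0.0117), Spry4 (-6.57, adjusted p = 0.00207), Errfi1 (-4.73, adjusted p = 0.0215) and Spry1 (-4.70, adjusted p = 0.00377). Against EC-like cells macrophage-like cells had 3 higher and 3 lower (beside 13.9%), among them Etv1 (7.61, adjusted p = 0.00145), Spry4 (-6.66, adjusted p = 0.00204), Etv5 (5.72, adjusted p = 0.0494) and Spry1 (-5.34, adjusted p = 0.00245). Against mural-like cells 3 were lower (beside 10%), Spry4 (-6.99, adjusted p = 0.00320), Spry1 (-6.04, adjusted p = 0.00283) and Lrig1 (adjusted p = 0.0268). Dusp6, an ERK phosphatase, was the 1 gene called in mural-like against ASC-like cells (1.79, adjusted p = 0.0356, beside 8.13%), and Etv1 the 1 called against EC-like cells (4.61, adjusted p = 0.0327, beside 2.28%). Between ASC2-like and ASC1a-like cells 2 were lower (beside 3.32%), Spry4 (-2.54, adjusted p = 0.00138) and Spry1 (-1.75, adjusted p = 0.000534), and between the sexes none was called (0 of 13 in ASC-like and 0 of 5 in EC-like cells).

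The 10 adaptors and signal carriers were all tested in the class contrasts. Plcg1, a phospholipase that FGF and EGF receptors bind, was the 1 called between EC-like and ASC-like cells (2.33, adjusted p = 0.000157), and it was lower in macrophage-like than in EC-like (-3.39, adjusted p = 0.000760) and mural-like cells (-1.94, adjusted p = 0.0176). So was Sos1, an activator of Ras (-2.74, adjusted p = 0.0187 against EC-like, -3.24, adjusted p = 0.0225 against mural-like cells). Cbl, which marks active receptors for breakdown, was higher in macrophage-like than in ASC-like (2.33, adjusted p = 0.0121) and EC-like cells (3.08, adjusted p = 0.00376), and higher in mural-like than in EC-like cells (2.33, adjusted p = 0.0481). The adaptor Grb2 was higher (2.12, adjusted p = 0.0156) and Shc1 lower (-1.41, adjusted p = 0.0419) in macrophage-like than in ASC-like cells. None of the list was called between ASC subtypes or between the sexes.

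The pattern over the 16 sums of class and mouse was compared with those of 12838 genes by Pearson's r of log2(CPM + 1). The genes nearest to Fgf7 were Sema3d, Fam198a and Clec11a (r = 0.988, 0.986 and 0.986), and those nearest to Fgf2 were Pcdh7, Gm32618 and Rhobtb3 (0.962, 0.958 and 0.954). Fgf10 was nearest to Gm48742, Mgst1 and Fkbp7 (0.912, 0.906 and 0.904). Egfr was nearest to Sec16b, Carmil1 and Emilin2 (0.978, 0.968 and 0.955) and Fgfr2 to Cpxm2, Greb1l and Bmp5 (0.956, 0.942 and 0.930). For Fgfr3 they were Ripor1, Plcg1 and Actn1 (0.924, 0.915 and 0.914), for Hbegf Bcar3, Rasgrp2 and Sncg (0.938, 0.923 and 0.921) and for Erbb2 Pxdn, Col4a2 and St5 (0.909, 0.908 and 0.896). These values are descriptions, since sums of 1 mouse share the animal and most of the spread lies between classes.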

How the data were processed

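Smart-seq2 reads of 3261 sorted cells were mapped by the authors with STAR (mm10 with ERCC spike-ins) and summarized per gene with Salmon and tximport; versions and use of strand are not given in the sources used here. Deposited are raw read counts for each gene in each cell, as whole numbers, after the authors' filters on cells; which step made them whole is not stated. ERCC rows (72, 1.98% of reads) were left out. Of 23507 gene rows, 23461 matched GENCODE vM21 by Ensembl identifier.

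Clusters were built with Seurat 5.3.0 (3000 variable genes, 14 components, resolution 1.1) without the 10 genes and both pathways. No doublet caller was run; cells rich in markers of another class were counted and left out in an alternative. Counts were summed per mouse and class and tested with edgeR 4.0.16 (quasi-likelihood test, TMM, more than 600 reads in at least 2 sums, Benjamini-Hochberg adjustment over all genes, mouse as a block where groups share animals). CPM leave out 11 ribosomal RNA genes, a choice made after seeing the data. In the 5 mice with ASC-like and EC-like sums, the deviations of both from their class means had r of 0.0633 to 0.285 over genes; the pairing comes from the animal. P-values of the sex contrasts within a class measure the spread between mice. With mouse as a block they measure how differences within a mouse vary from mouse to mouse. That spread is shared by all groups of a fit, so for mural-like and macrophage-like cells it rests mostly on the ASC-like and EC-like sums. The tests were run on simulated counts first. Alternatives included edgeR's likelihood ratio test and DESeq2 1.42.0. Named are all 10 genes, up to 4 called genes per pathway list and contrast with the largest fold, and the 3 genes most like each gene; those of Fgfr1 and the summed macrophage markers are not reported here. The genes, lists and tests were chosen with earlier results of these data known, so no pattern of them is independent support.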

Additional observations from a re-analysis of the deposited data

Results flagged for a closer look

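In 60 groups of 4 to 7 mice, 14 levels lay far from the others of their group by Dixon's test at the 95% level. By chance the test marks about 1 group in 20 where groups are independent and values normal. Neither holds here, since groups share cells and some levels rest on few reads. The count of 14 therefore cannot be set against that rate. In ASC-like cells of all mice, mouse 1 was the far value for Fgfr1 (719.8 CPM), Fgfr2 (31.4 CPM), Fgfr3 (8.50 CPM), Erbb2 (83.1 CPM) and Erbb3 (7.06 CPM), and in EC-like cells for Fgfr2 (2.23 CPM). Mouse 5 was far for Fgf2 in EC-like cells (4.80 CPM), for Hbegf in female ASC1b-like cells (8.11 CPM) and for Fgfr3 in female ASC2-like cells (1.15 CPM). Mouse 2 was far for Fgfr3 in female ASC1a-like (0.584 CPM) and ASC1b-like cells (4.12 CPM) and for Erbb3 in female ASC1a-like cells (0.00703 CPM, 1 read, with none in the other females). Mouse 3 was low for Fgfr2 among female ASC-like sums (1.55 CPM), and mouse 6/7 was high for Erbb3 in EC-like cells (4.40 CPM).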

How the results depend on the processing

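Across all alternatives, 1467 of the refitted log2 fold changes kept direction and side of the limits, 44 lost and 35 gained a call and 49 changed sign, among genes that were not called. Of the levels and shares, 104 moved and 156 did not. The limit was the SD over mice for levels and the exact counting interval for shares and plate values. Unless said otherwise, the cause of a change was not tested. The calls of Fgf2, Fgf7, Fgf10, Fgfr1, Fgfr2, Egfr and Hbegf between EC-like and ASC-like cells, of Egfr between macrophage-like and EC-like cells and of Fgf2 between ASC2-like and ASC1a-like cells were kept under each alternative that gave them a value, although without mouse 1 or 5 the macrophage-like arm is 1 sum. Hbegf has no value in the class contrasts without mouse 2, where it did not pass the read filter. The few reads of Erbb2, Fgfr2 and Fgfr3 in macrophage-like cells limit their fold changes.

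The number of the described genes called, leaving out 1 mouse at a time, ran over 7 to 8 for EC-like against ASC-like cells (over all genes 2213 to 2787), 1 to 4 for mural-like against ASC-like (all genes 190 to 1039), 1 to 5 for macrophage-like against ASC-like (all genes 617 to 2036), 0 to 1 for mural-like against EC-like (all genes 98 to 295), 2 to 4 for macrophage-like against EC-like (all genes 560 to 1880), 0 to 1 for ASC1b-like against ASC1a-like cells (all genes 43 to 86) and 0 to 1 for the sexes in ASC-like cells (all genes 92 to 345). Sums of at least 20 cells gave 2 for mural-like against ASC-like and 1 against EC-like cells (all genes 289 and 233), naming each cell from its own markers gave 0 against ASC-like cells (all genes 152), and leaving out cells rich in other markers gave 1 and 2 (all genes 348 and 916), each with 1 mural-like sum. The likelihood ratio test and DESeq2 each called 1 gene between mural-like and EC-like cells (all genes 887 and 1180, against 293), 4 between macrophage-like and mural-like cells (2335 and 2741, against 1285), 1 between ASC1b-like and ASC1a-like cells (160 and 203, against 78) and 2 between the sexes (551 and 594, against 264). Library totals alone gave 1 for ASC1b-like against ASC1a-like cells and 0 for the sexes (all genes 77 and 311).

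The replicate block pairs sums of the same animal. Without the replicate block 1 gene was called between mural-like and EC-like cells (Egfr 3.96), Fgfr3 was called in mural-like against ASC-like cells (5.66) and Fgf7 in macrophage-like against ASC-like cells (-5.72). The calls of Fgf10 in mural-like (-2.85) and Egfr in macrophage-like against ASC-like cells (-2.10) and of Fgfr3 in macrophage-like against EC-like cells (-6.23) were lost, and no other call changed. The sign turned for Fgfr2 (0.37) and Erbb2 (0.60) in mural-like and Fgfr1 (0.33) in macrophage-like against ASC-like cells, for Fgf10 (0.42) and Fgfr3 (1.20) in mural-like and Fgf2 (0.24) in macrophage-like against EC-like cells, and for Fgfr2 (-0.79) in ASC2-like against ASC1a-like cells.

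The sign also turned under other settings. With cells named from their own markers it did for Fgf7 (3.03) and Hbegf (-0.0307) in mural-like against EC-like cells, Fgf2 (0.31) and Fgf7 (-2.13) in macrophage-like against EC-like cells, Fgf7 in macrophage-like against mural-like cells (-5.16) and Fgfr3 between the sexes in EC-like cells (0.26). Without cells rich in other markers it did for Fgfr1 in macrophage-like against ASC-like cells (0.0128), Fgfr2 in mural-like against EC-like cells (-1.06) and Fgf2 (0.91) and Fgf7 (-1.51) in macrophage-like against EC-like cells, and with at least 20 cells for Fgfr1 in macrophage-like against ASC-like (0.00160) and Fgf7 in mural-like against EC-like cells (0.56). Egfr in ASC2-like against ASC1b-like cells was 0.00574 with library totals, 0.0186 with scores over all mice and 0.00442 without ribosomal RNA genes. Fgf2 between the sexes in ASC-like cells was 0.0106 with DESeq2's size factors and 0.0105 in DESeq2, and Hbegf in EC-like cells was -0.0719 with library totals.

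Leaving out 1 mouse at a time, the log2 fold changes that turned ran over -0.95 to 0.34 for Erbb2 in mural-like and -1.92 to 0.68 for Fgfr1 in macrophage-like against ASC-like cells. In mural-like against EC-like cells they ran over -1.67 to 2.32 for Fgf2, -8.85 to 1.00 for Fgf7, -0.60 to 0.17 for Fgf10, -2.96 to 4.08 for Fgfr1, -5.77 to 4.02 for Fgfr2 and -0.95 to 0.16 for Erbb2. In macrophage-like against EC-like cells Fgf2 ran over -1.71 to 0.80 and Fgf7 over -0.62 to 4.16, and against mural-like cells Fgfr2 ran over -13.19 to 5.09. Between the subtypes Erbb2 ran over -0.19 to 0.0748 (ASC1b-like against ASC1a-like), Fgfr2 over -0.15 to 0.70 (ASC2-like against ASC1a-like) and Egfr over -0.0790 to 0.0368 (ASC2-like against ASC1b-like), and between the sexes Fgf2 ran over -0.57 to 0.25 in ASC-like and Hbegf over -0.25 to 0.79 in EC-like cells.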
